A study of Mus musculus with 9 samples.

Results

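The genes described here handle lipoproteins and bring lipid into fat cells. They are 10 genes, given by name: the apolipoprotein genes Apod, Apoe and Apoc1, the lipase gene Lpl and its inhibitor gene Angptl4, the receptor genes Vldlr, Lrp1 and Scarb1, the fatty acid transporter gene Cd36 and the fatty acid binding protein gene Fabp4. All 10 were found among the 18193 genes of the array, on 26 of the 34945 probe sets that name 1 gene. A probe set is a group of short probes for 1 transcript. For each gene the probe set with the highest mean was used, and 9 of the 10 members were among the 12735 genes bright enough to be tested. Vldlr was not.

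The cells were mature 3T3-L1 adipocytes, fat cells grown from a mouse preadipocyte line. In each of the 3 groups, lentivirus delivered a short hairpin RNA: a scrambled control hairpin, hairpin 1 against Ebf1 or hairpin 2 against Ebf1, with 3 arrays per group. Ebf1 encodes a DNA-binding regulator named for its role in early B cells, and the study asked which genes depend on it in adipocytes. All groups, the control included, were infected 3 to 4 times in series and selected for 8 days or longer with puromycin (5 μg/ml). All arrays come from this 1 cell line. The titles do not say whether the arrays of a group are separate cultures, so the p-values rest on a spread among arrays that may be technical only.

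Lipoprotein lipase, made by adipocytes, releases fatty acids from the triglyceride of circulating lipoproteins, and the protein encoded by Angptl4 inactivates it. Cd36 helps the released fatty acids into the cell, where the Fabp4 protein binds them. Apolipoproteins dress lipoprotein particles and steer them to receptors of the low-density lipoprotein receptor family, such as those of Vldlr and Lrp1, while Scarb1 encodes a receptor for high-density lipoprotein. Lpl, Cd36, Fabp4 and Angptl4 are known targets of the nuclear receptor encoded by Pparg.

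Array values ranged from 3.90 to 15.0 on the log2 scale. Pearson correlations over the tested genes were 0.994 to 0.998 between arrays of a group and 0.974 to 0.989 between arrays of different groups. Ebf1 itself fell with both hairpins, to 59.3% of the scrambled level with hairpin 1 and 41.9% with hairpin 2 on its brightest probe set (limma adjusted p = 0.000102 and 2.98e-07). Of 11 adipocyte markers, 8 were tested, and Adipoq read 14.82 on the scrambled arrays. Of 7 endothelial markers 6 were below the signal filter, and of 11 macrophage and leukocyte markers 6 were, including Ptprc and Adgre1. Of the 5 tested, Cd68 alone was called: it rose with hairpin 2 (5.67 to 6.84, log2 difference 1.18, adjusted p = 3.3e-07), beside -0.02 with hairpin 1, and its part in the hairpin 2 differences was not tested. Cd14 read 9.02 on the scrambled arrays. Of the preadipocyte and fibroblast markers, 8 of 8 tested were called higher with hairpin 1, and 7 were called higher and 1, Dlk1, lower with hairpin 2. Of all tested genes, 23.7% were called higher with hairpin 1, and 21.5% higher and 13.3% lower with hairpin 2. The mean level of the preadipocyte and fibroblast list was 10.04 to 10.22 on the scrambled arrays, 10.94 to 11.07 with hairpin 1 and 11.09 to 11.13 with hairpin 2. It was thus higher with both hairpins, and its part in the differences from scrambled given below was not tested. In bulk samples, fewer cells of a type and less RNA per cell cannot be told apart.

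Among the 10 genes the data show a steep fall of Apod with both hairpins, opposite changes of Angptl4 with the 2 hairpins, and a rise of Lrp1 with hairpin 2. Lpl, Scarb1 and Cd36 were not called in any comparison on the probe sets used, nor was Apoe. With hairpin 1, 2 of the 9 tested members passed an adjusted p of 0.05, Angptl4 higher and Apod lower, when 33.0% of all tested genes did. The background was 23.7% of genes higher and 9.23% lower, so that 72.0% of the calls were higher, a share of 59.1% after quantile normalization. With hairpin 2, 4 of 9 members passed, Apoc1 and Lrp1 higher and Apod and Angptl4 lower, against 34.8% of all tested genes. Between the hairpins, 5 of 9 passed, Apoc1, Lrp1 and Fabp4 higher with hairpin 2 and Apod and Angptl4 lower, against 29.1% of all tested genes (11.6% higher and 17.4% lower). The median log2 difference of the 9 members was -0.04 with hairpin 1 and 0.01 with hairpin 2, beside 0.07 and 0.02 over all tested genes. These counts lie near the background or rest on few genes, so the members are described 1 by 1.

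**Figure D1:**
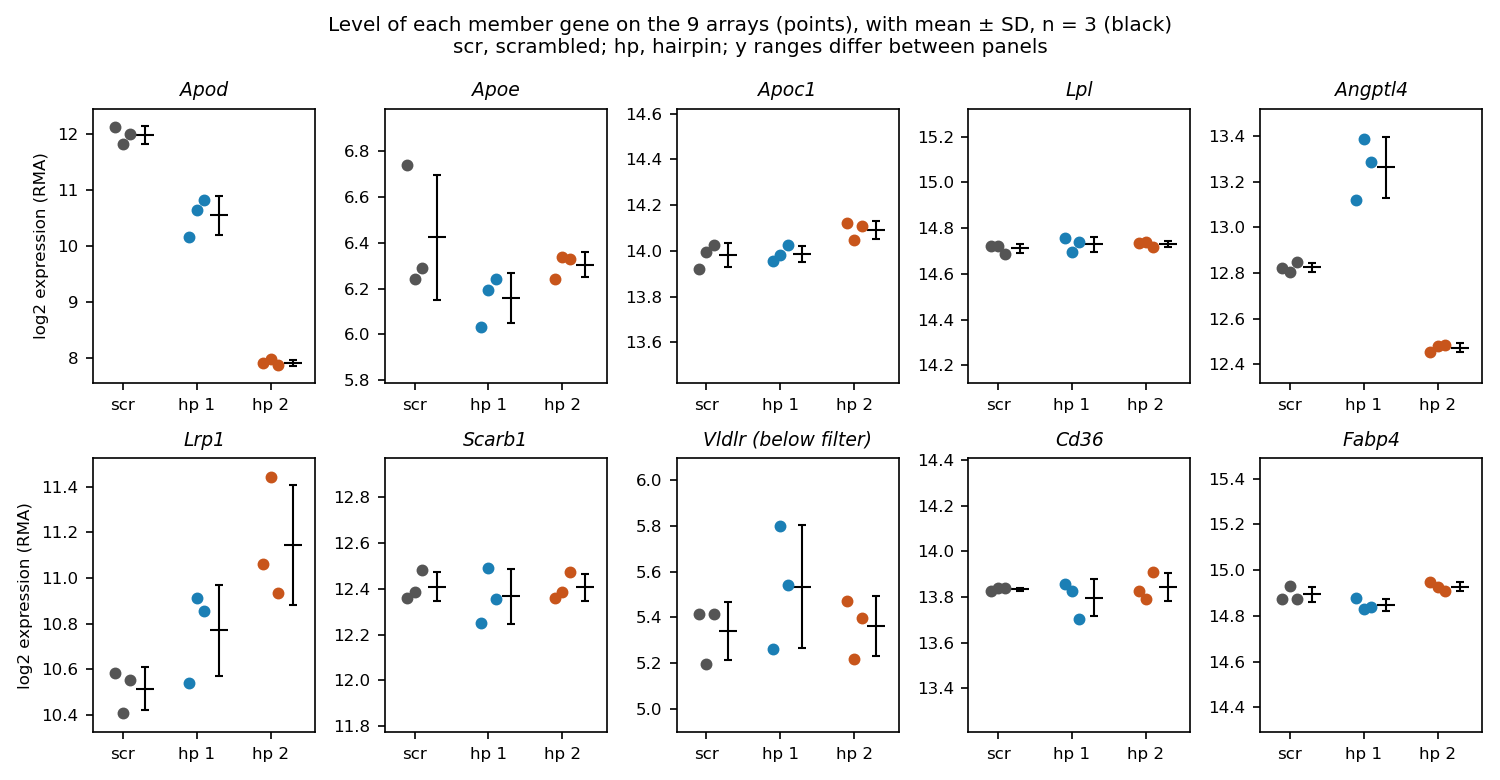
Log2 expression of the 10 members on each of the 9 arrays (points, 3 per group) with the group mean and SD (black). Apod drops from about 12 with the scrambled hairpin to below 8 with hairpin 2, Angptl4 lies above the scrambled level with hairpin 1 and below it with hairpin 2, and Lpl, Cd36 and Fabp4 lie near the top of the array scale; each panel has its own y range.

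Apod encodes apolipoprotein D, a small secreted protein of the lipocalin family that carries lipids such as arachidonic acid and rides on high-density lipoprotein. The scrambled arrays read 12.12, 11.81 and 12.00 on the log2 scale. The arrays with hairpin 1 read 10.16, 10.64 and 10.82, and those with hairpin 2 read 7.90, 7.97 and 7.87. No group overlapped another, which held between hairpin 1 and scrambled for 43.4% of tested genes, between hairpin 2 and scrambled for 49.4% and between the hairpins for 35.6%. The level fell 2.71-fold with hairpin 1 (log2 difference -1.44, SE 0.132, limma adjusted p = 6.97e-07) and 16.7-fold with hairpin 2 (-4.06, SE 0.132, adjusted p = 1.09e-12). Apod therefore stood at 36.9% of the scrambled level with hairpin 1 and at 5.99% with hairpin 2. Hairpin 2 left less Apod signal than hairpin 1 by 6.16-fold (log2 difference -2.62, adjusted p = 1.37e-09). In this comparison Apod ranked number 5 of 12735 genes from the lowest difference, and it ranked number 19 for hairpin 2 against scrambled.

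The hairpin 1 arrays spread more widely for Apod (SD 0.34) than those of scrambled (SD 0.16) and hairpin 2 (SD 0.05, n = 3 each), and the first repeat of hairpin 1 was the lowest of its group. The fall with each hairpin and the difference between hairpins were called under every one of 18 alternative settings. The smallest values, -0.70, -2.07 and -1.37, came from averaging both Apod probe sets. The other Apod probe set read 4.97 on the scrambled arrays, below the signal filter, and 5.00 and 4.89 with the hairpins. The 2 genes whose values over the 9 arrays followed those of Apod most closely were Iigp1, an interferon-inducible GTPase gene (Pearson r = 0.998), and Ifit1, an interferon-induced gene (0.998). These points share their arrays and the 3 group levels, and the correlation is a description. Iigp1 differed from scrambled by -1.26 and -3.59 log2 units with hairpins 1 and 2, and Ifit1 by -1.60 and -4.66 (all 4 called).

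The sequence before the start site is shown for Apod and Lrp1, the members called with a hairpin for which the RefSeq promoter table (GRCm38.p6) held an entry. That table matched 5 of the 10 members. Each line gives the 250 bases before the start, 5′ to 3′ on the strand of the gene, with a match to the core of the Ebf recognition motif, CCCNNGGG, in capitals. Apod lies at chr16:31314809-31315058 and Lrp1 at chr10:127621149-127621398, both on the minus strand.
Apod: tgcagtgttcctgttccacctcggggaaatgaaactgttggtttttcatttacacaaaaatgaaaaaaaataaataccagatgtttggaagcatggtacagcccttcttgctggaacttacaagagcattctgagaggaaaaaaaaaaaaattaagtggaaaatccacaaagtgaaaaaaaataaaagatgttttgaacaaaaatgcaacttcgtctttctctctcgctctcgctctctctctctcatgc
Lrp1: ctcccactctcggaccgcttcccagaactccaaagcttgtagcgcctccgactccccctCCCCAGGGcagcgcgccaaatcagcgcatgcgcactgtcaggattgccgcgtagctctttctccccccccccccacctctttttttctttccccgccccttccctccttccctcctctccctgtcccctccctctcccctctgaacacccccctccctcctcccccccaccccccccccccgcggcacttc
The Apod stretch is rich in A and T, with a GC content of 36.4% against 67.2% for Lrp1 and a median of 52.4% over all windows of the table. Lrp1 held 1 core match, at bases -191 to -184 from the start, and Apod held none. The core was in 3 of the 8 member windows, the others being 2 of Apoe (bases -130 to -123 and -42 to -35), a gene not called. In windows of 300 bases, which run on to 50 bases past the start, the core was found on either strand in 13.7% of all 32851 windows. The longer motif, TCCC and GGGA with 2 bases between, which contains the core, was found in 0.904% of all windows and in 0 of the 8 member windows. The direct repeats of the peroxisome proliferator element, AGGTCA repeated with 1 base between (0.0396% of windows), and of the liver X receptor element, the same repeated with 4 bases between (0.0152%), were also in 0 of them. The interferon element, GAAA repeated with 2 bases between, added after the likeness of Apod to interferon-induced genes was seen, was in 3.44% of all windows and in 1 of the 8 member windows, one of Vldlr (bases 38 to 47), not that of Apod. The CCAAT box (37.4% of windows) was in a window of Cd36 and one of Vldlr, and TATAAA (13.6%) in one of Apoe. A match is a run of letters, not a binding site, and its absence says only that these letters are not in the window.

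Apoc1 and Apoe lie side by side in one apolipoprotein gene cluster. Apoc1 encodes a small apolipoprotein that hinders the receptor uptake of triglyceride-rich particles. It read 13.92, 13.99 and 14.03 on the scrambled arrays, 13.96, 13.98 and 14.03 with hairpin 1, and 14.12, 14.05 and 14.11 with hairpin 2. The hairpin 2 arrays were all above the others, by a small step. Apoc1 rose 1.08-fold with hairpin 2 (log2 difference 0.11, SE 0.037, limma adjusted p = 0.0296), and differed by 0.01 with hairpin 1 (95% interval -0.07 to 0.09). The call with hairpin 2 was lost under 7 of 18 alternatives, among them equal array medians (adjusted p = 0.0507), no mean-variance trend (0.228), and leaving out scrambled repeat 1 (0.163) or 2 (0.0532) or hairpin 2 repeat 1 (0.116) or 3 (0.0891). The call between the hairpins (0.10, adjusted p = 0.0478) was lost under 11 of 18, among them leaving out scrambled repeat 2 or 3, hairpin 1 repeat 1 or 2, or hairpin 2 repeat 1 or 3 (adjusted p = 0.0536 to 0.166).

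Apoe encodes apolipoprotein E, the ligand by which remnant particles bind their receptors. Its single probe set was dim. The scrambled arrays read 6.74, 6.24 and 6.29, so the first stood above the others. Hairpin 1 arrays read 6.03, 6.20 and 6.24 and hairpin 2 arrays 6.24, 6.34 and 6.33, and the groups overlapped. The log2 differences were -0.27 with hairpin 1 (95% interval -0.52 to -0.02, limma adjusted p = 0.0927) and -0.12 with hairpin 2 (-0.37 to 0.13, adjusted p = 0.486), neither of them called. The hairpin 1 difference depended on the scrambled arrays: without the first, the highest, it was -0.11 (adjusted p = 0.483), and without the second it was -0.36 and was called (adjusted p = 0.0495). Without the first the hairpin 2 difference was 0.04 (adjusted p = 0.844).

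Angptl4 encodes angiopoietin-like protein 4, a secreted inhibitor of lipoprotein lipase. It read 12.82, 12.80 and 12.85 with the scrambled hairpin, 13.12, 13.38 and 13.28 with hairpin 1, and 12.45, 12.48 and 12.49 with hairpin 2. Every hairpin 1 array was above, and every hairpin 2 array below, the scrambled arrays. Angptl4 rose 1.36-fold with hairpin 1 (log2 difference 0.44, SE 0.058, limma adjusted p = 3.13e-05) and fell 1.28-fold with hairpin 2 (-0.35, SE 0.058, adjusted p = 0.000177). The hairpins differed directly by -0.79 log2 units (95% interval -0.91 to -0.67, adjusted p = 8.58e-08). Among all tested genes, 1.55% were called with both hairpins in opposite directions and 18.5% in the same direction. The other Angptl4 probe set read 4.95 on the scrambled arrays, below the filter. When it was averaged with the first, the rise with hairpin 1 was 0.24 (adjusted p = 0.0243), and the fall with hairpin 2 was no longer called (-0.13, adjusted p = 0.208), while the difference between hairpins was (-0.37, adjusted p = 0.00229). The probe set used is of a kind, marked s, whose probes can match more than 1 transcript.

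Lpl, the lipase gene itself, was among the brightest on the array. It read 14.72, 14.72 and 14.69 on the scrambled arrays, 14.76, 14.69 and 14.74 with hairpin 1 and 14.73, 14.74 and 14.72 with hairpin 2, and all groups overlapped. The differences from scrambled were 0.02 with each hairpin (95% intervals -0.04 to 0.08), and the difference between hairpins was 0.00 (-0.06 to 0.06). Its other probe set read 14.61 and differed by -0.02 and -0.00. The top of the array scale was 15.0, so a difference at this level may be compressed, and the narrow intervals hold for the array signal only.

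**Figure D2:**
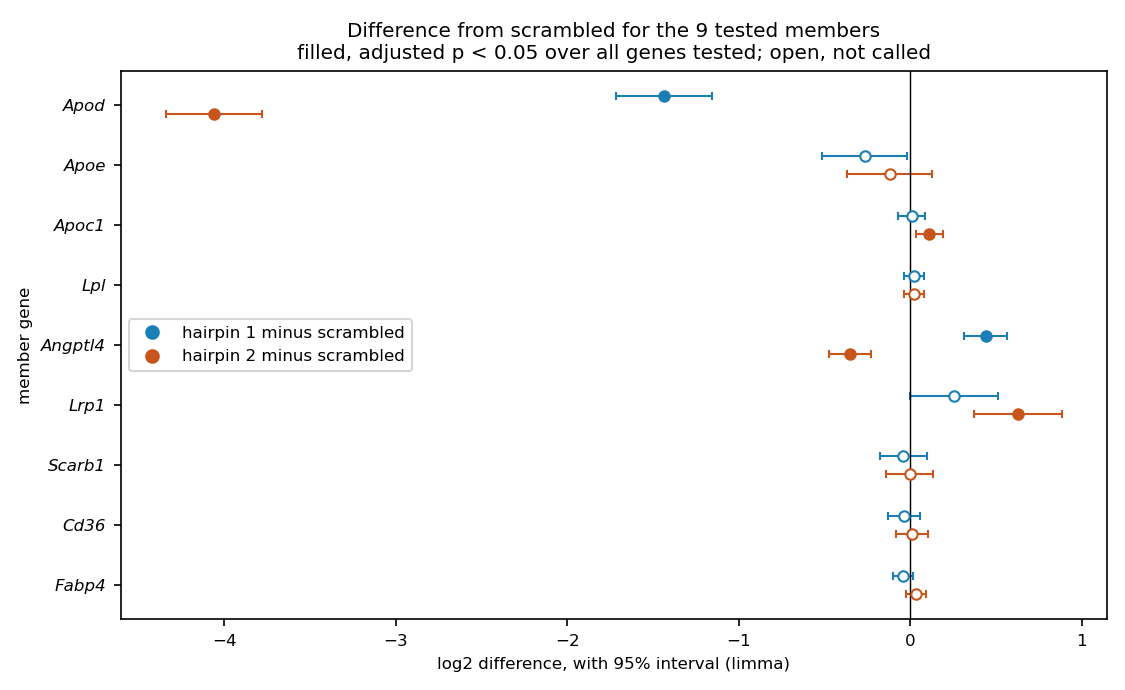
Log2 difference from scrambled (x) of the 9 tested members (y) with hairpin 1 (blue) and hairpin 2 (orange), each with its 95% interval from limma. Filled points passed an adjusted p of 0.05 over all genes tested: Apod lies at -1.44 and -4.06, Angptl4 on both sides of 0, and Lpl, Scarb1, Cd36 and Fabp4 within 0.05 of 0.

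Lrp1 encodes a large receptor that takes up remnant lipoproteins, protease complexes and many other ligands. It read 10.58, 10.41 and 10.56 with the scrambled hairpin, 10.54, 10.91 and 10.86 with hairpin 1, and 11.06, 11.44 and 10.94 with hairpin 2. All hairpin 2 arrays were above all others, and 1 of the hairpin 1 arrays, the first repeat, lay within the scrambled range. Lrp1 rose 1.55-fold with hairpin 2 (log2 difference 0.63, SE 0.120, limma adjusted p = 0.000635), a call kept under all 18 alternatives (0.48 to 0.73). With hairpin 1 it differed by 0.25 (95% interval -0.00 to 0.51, adjusted p = 0.121). Without the first repeat of hairpin 1 this difference was 0.37 and was called (adjusted p = 0.0202). With array weights it was 0.33 and was called (adjusted p = 0.00108). The hairpins differed by 0.37 (adjusted p = 0.0283). Omitting hairpin 1 repeat 1 ended that call (0.26, adjusted p = 0.0956), as did omitting hairpin 2 repeat 2 (0.23, adjusted p = 0.152) and a fit with no mean-variance trend (adjusted p = 0.0503). A dimmer Lrp1 probe set, at 7.36 on the scrambled arrays, was not called: it differed by 0.09 with hairpin 1 (probe set adjusted p = 0.717) and by 0.35 with hairpin 2 (0.0935).

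Scarb1 encodes the receptor that takes cholesteryl ester from high-density lipoprotein. It read 12.36, 12.39 and 12.48 on the scrambled arrays, 12.25, 12.49 and 12.36 with hairpin 1, and 12.36, 12.39 and 12.47 with hairpin 2. The groups overlapped, and the differences were -0.04 (95% interval -0.18 to 0.10) and -0.00 (-0.14 to 0.13). This probe set and the next are of the x kind, whose probes can match other transcripts. The second, at 12.35, differed by -0.18 and -0.12 and was not called. The third Scarb1 probe set, not of that kind, read 11.29 with the scrambled hairpin and 11.56 with hairpin 2, and was called higher with hairpin 2 (0.27, adjusted p = 0.0168 over all probe sets) and not with hairpin 1 (0.04, adjusted p = 0.74).

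Vldlr encodes the very low-density lipoprotein receptor, which brings triglyceride-rich particles to the cell. Its brightest probe set read 5.41, 5.19 and 5.41 on the scrambled arrays, 5.26, 5.80 and 5.54 with hairpin 1 and 5.47, 5.22 and 5.40 with hairpin 2, below the filter of 5.72 for genes, and the groups overlapped. Without the filter the differences were 0.19 and 0.02 (limma adjusted p = 0.276 and 0.939 over 18193 genes). Of its 6 probe sets the dimmest read 4.41 on the scrambled arrays. Since the array minimum was 3.90, these readings do not show whether the transcript was present.

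Cd36 encodes the membrane protein that binds long-chain fatty acids at the cell surface. It read 13.83, 13.84 and 13.84 on the scrambled arrays, 13.86, 13.83 and 13.71 with hairpin 1 and 13.83, 13.79 and 13.91 with hairpin 2. The groups overlapped, and the differences were -0.04 (95% interval -0.13 to 0.06) and 0.01 (-0.08 to 0.10). A second probe set, at 13.17, differed by 0.08 and 0.07 and was not called. The dimmest, at 8.73, read 9.06, 9.12 and 9.36 with hairpin 2, above every scrambled array, and was called higher there (log2 difference 0.45, adjusted p = 0.00513 over all probe sets), and not with hairpin 1 (0.14, adjusted p = 0.375). With the mean of all 3 Cd36 probe sets the gene passed with hairpin 2 (0.18, adjusted p = 0.0282). With array weights it was called lower with hairpin 1 (-0.11, adjusted p = 0.00395). Between the hairpins, 1 of 18 alternatives brought a call.

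Fabp4 encodes the adipocyte fatty acid binding protein, a cytoplasmic carrier. Its brightest probe set read 14.87, 14.93 and 14.88 on the scrambled arrays, 14.88, 14.83 and 14.84 with hairpin 1 and 14.95, 14.93 and 14.91 with hairpin 2. Hairpin 2 arrays were all above hairpin 1 arrays, by 0.08 log2 units (95% interval 0.02 to 0.14, limma adjusted p = 0.0401), and neither hairpin was called against scrambled (-0.04 and 0.03, adjusted p = 0.233 and 0.38). With array weights the hairpin 1 difference from scrambled was called (-0.05, adjusted p = 0.0293). The call between hairpins was kept under 7 of 18 alternatives, lost with its direction kept under 10, and turned in sign under 1. It was lost without scrambled repeat 1, hairpin 1 repeat 2 or 3, or any 1 of the hairpin 2 arrays (adjusted p = 0.0512 to 0.144). Of the 3 dimmer Fabp4 probe sets, 2 ran the other way. That at 12.40 on the scrambled arrays read 12.56, 12.58 and 12.63 with hairpin 1 and 12.14, 12.26 and 12.32 with hairpin 2, so hairpin 1 lay above and hairpin 2 below scrambled (0.19, probe set adjusted p = 0.0249, and -0.16, 0.0464). Between the hairpins it differed by -0.35 (adjusted p = 0.00051). The probe set at 12.90 was called higher with hairpin 1 (0.21, adjusted p = 0.0434) and lower with hairpin 2 than with hairpin 1 (-0.27, adjusted p = 0.0131), while that at 13.78 ran the same way as the brightest (-0.10 with hairpin 1 and 0.10 between the hairpins) and was not called. The direction of Fabp4 between the hairpins therefore depended on the probe set, and with the mean of all 4 it was -0.11 (adjusted p = 0.0575).

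Over all 20 member probe sets above the probe set filter, which included 2 of Vldlr, 3 were called higher and 1 lower with hairpin 1, against a background of 22.7% of probe sets called. With hairpin 2, 4 were higher and 3 lower, against 26.0%, and between the hairpins 1 was higher and 4 lower, against 19.3%. For Lpl, Cd36 and Fabp4 the probe sets that read above 13 on the scrambled arrays differed from scrambled by at most 0.10 log2 units, and none of them was called. The probe sets of Cd36 and Fabp4 that were called read 8.73 to 12.90 on the scrambled arrays. Whether signal near the top of the scale hides differences was not tested.

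**Figure D3:**
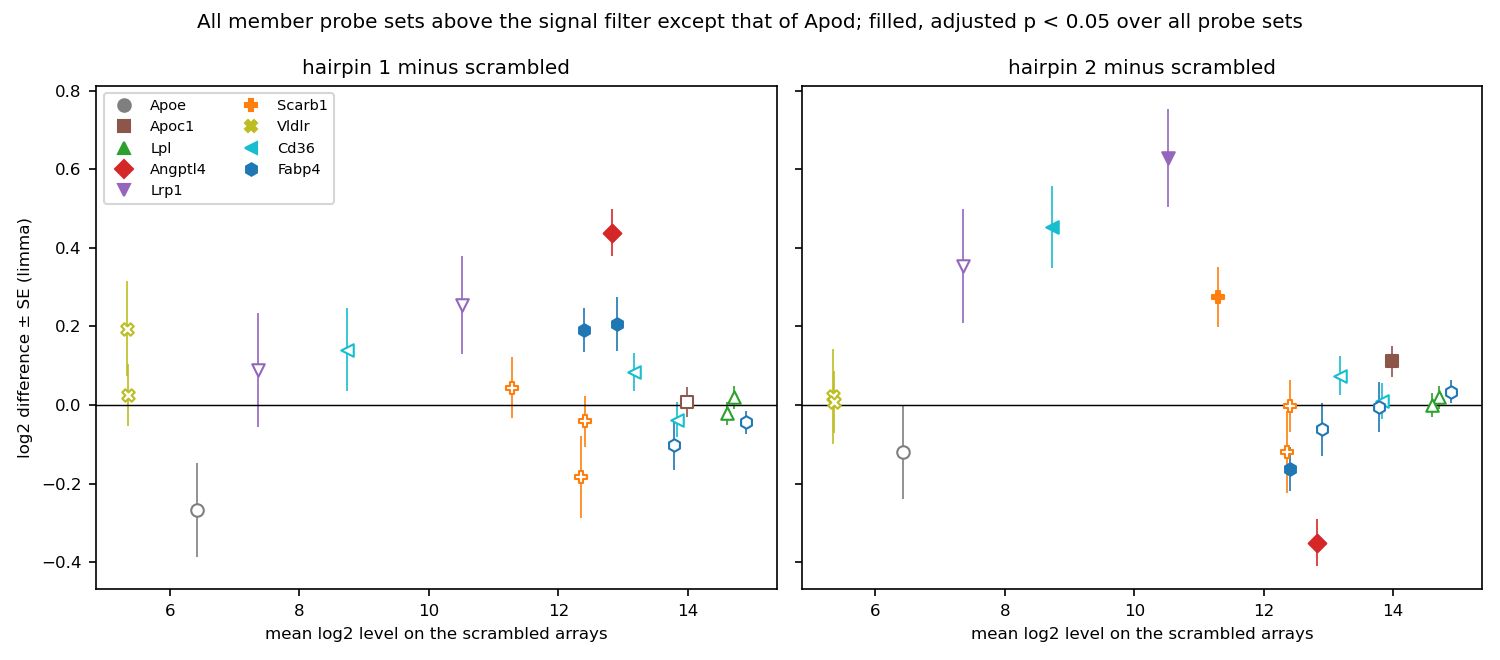
Log2 difference from scrambled (y, with SE) against the mean log2 level on the scrambled arrays (x) for the member probe sets above the filter, that of Apod left out because of its size, with hairpin 1 (left) and hairpin 2 (right). Points of Lpl, Cd36 and Fabp4 above 13 on the x axis lie within about 0.10 of 0, while dimmer probe sets of the same genes, such as those of Fabp4 at 12.40 and of Cd36 at 8.73, lie farther from it; filled points passed an adjusted p of 0.05 over all probe sets.

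Beyond the 10 genes, 5 lists of lipoprotein handling and lipid uptake held 84 further genes, of which 56 were tested. With hairpin 1, 9 were higher and 6 lower (background 23.7% and 9.23%), and with hairpin 2, 13 were higher and 9 lower (21.5% and 13.3%). Called in the same direction with both were 7 that rose and 4 that fell, and 3 were called in opposite directions, so that 11 of 56 were called alike, when 18.5% of all tested genes were, and 1.55% oppositely. The median difference of the 56 was 0.04 and 0.03, beside 0.07 and 0.02 over all tested genes. Both hairpin comparisons use the same scrambled arrays.

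Among the other apolipoprotein genes, 3 of 11 were called higher and 1 lower with hairpin 1, against 3 higher and 2 lower with hairpin 2. Apoc3, an inhibitor of triglyceride clearance, rose from 7.79 ± 0.17 to 8.82 ± 0.12 and 8.40 ± 0.12 (SD, n = 3 each; log2 differences 1.03 and 0.60, limma adjusted p = 2.33e-06 and 0.000297). It was lower with hairpin 2 than with hairpin 1 (-0.43, adjusted p = 0.00648). Clu, the gene of clusterin, also called apolipoprotein J, rose by 0.55 and 0.58 log2 units. Apoa4 rose by 0.27 and 0.39, and Apoc4, of the same cluster as Apoe and Apoc1, fell by 0.25 and 0.28. Apoa4 was dim, at 6.44 on the scrambled arrays. The hairpin 1 call of Apoa4 (adjusted p = 0.0369) was lost with quantile normalization (0.0775), equal array medians (0.0736) and without scrambled repeat 1 (0.129) or 3 (0.103) or hairpin 1 repeat 3 (0.184). That of Apoc4 (0.0333) was lost without any 1 of the scrambled arrays (0.0767, 0.105 and 0.0941) or hairpin 1 repeat 2 (0.0693) or 3 (0.0644). Its hairpin 2 call (0.0194) was lost without scrambled repeat 2 (0.0697) or 3 (0.0647) or hairpin 2 repeat 3 (0.0786).

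Of the other genes of lipases and their regulators, 1 of 7 were called higher and 1 lower with hairpin 1, against 2 higher and 1 lower with hairpin 2. Furin, a protease gene whose product cleaves lipase and its inhibitors, rose by 0.43 with hairpin 1 (limma adjusted p = 0.00143) and by 0.24 with hairpin 2 (0.0456). That hairpin 2 call was lost under quantile normalization (0.0734) and without any 1 of the scrambled arrays, hairpin 1 repeat 3 or hairpin 2 repeat 1 or 2 (0.0598 to 0.170). Angptl8, a partner of the angiopoietin-like inhibitors, fell by 0.32 and 0.31 (adjusted p = 0.0182 and 0.0209). Both calls were lost without scrambled repeat 2 (0.0805 and 0.0897) or 3 (0.0585 and 0.0671), and the hairpin 2 call also without hairpin 2 repeat 1 (0.0665) or 3 (0.0521). Lmf2 rose by 0.29 with hairpin 2 (adjusted p = 0.0188), and Pcsk5 was not called (-0.12 and -0.17). With array weights Pcsk5 was called lower with hairpin 1 (-0.22, adjusted p = 0.0122). The Lmf2 call was lost without scrambled repeat 1 (0.0799) or 2 (0.0897) or hairpin 2 repeat 2 (0.0665). Gpihbp1, which carries lipase to the capillary wall, was below the signal filter.

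Of the other receptor genes and their partners, 3 of 16 were called higher and 1 lower with hairpin 1, against 6 higher and 2 lower with hairpin 2. Lrp8, a receptor gene related to Vldlr, rose by 0.60 and 0.47 (limma adjusted p = 0.000951 and 0.00504), and by 0.25 and 0.26 with the mean over its probe sets (0.0218 and 0.0159). It was dim, at 6.47 on the scrambled arrays. With hairpin 2 Lrp12 rose by 0.55 (adjusted p = 0.0009), beside -0.02 with hairpin 1. Lrp11 moved furthest apart: from 9.52 ± 0.02 it fell to 8.78 ± 0.13 with hairpin 1 and rose to 10.25 ± 0.10 with hairpin 2 (SD, n = 3 each). Those differences were -0.74 and 0.73, and the hairpins differed by 1.47 (adjusted p = 1.13e-08). Lrp10 was called in the reverse order, 0.22 and -0.34, with a direct difference of -0.56 (adjusted p = 4.12e-05). Its hairpin 1 call (adjusted p = 0.0348) was lost under quantile normalization (0.0619) and without scrambled repeat 1 (0.0927) or 2 (0.153) or hairpin 1 repeat 2 (0.0891) or 3 (0.151). Scarb2, a lysosomal membrane protein gene, rose by 0.31 and 0.17 on its brightest probe set, while the mean over its probe sets gave -0.06 and 0.06, not called. Its hairpin 2 call was also lost without hairpin 2 repeat 1 (0.0781). Snx17, a sorting partner of Lrp1, fell with hairpin 2 by 0.20, a call lost without scrambled repeat 1 (adjusted p = 0.0614) or hairpin 2 repeat 3 (0.0552). Lrp10 and Lrp11 were named after their values were seen.

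Of the other genes of fatty acid uptake and binding, 2 of 14 were called higher and 1 lower with hairpin 1, against 1 higher and 2 lower with hairpin 2. Got2, the mitochondrial aspartate aminotransferase gene whose product has also been described as a fatty acid binding protein of the plasma membrane, rose from 11.79 ± 0.06 to 12.23 ± 0.02 and 12.77 ± 0.02 (SD, n = 3 each; log2 differences 0.44 and 0.98, limma adjusted p = 1.04e-05 and 4.96e-10). Hairpin 2 was above hairpin 1 by 0.54 (adjusted p = 1.39e-06). With the mean over its probe sets the hairpin 2 rise was 0.65 and the difference between hairpins 0.34, both called. Acsl5, a long-chain acyl-CoA synthetase gene, fell by 0.66 and 0.34, and less with hairpin 2 (direct difference 0.31, adjusted p = 0.00344). Its relative Acsl4, named after its values were seen, rose with hairpin 1 (0.41) and fell with hairpin 2 (-0.26) on the brightest probe set, while the mean over its probe sets gave 0.00 and -0.08, not called. The fatty acid transporter gene Slc27a1 (0.24 and 0.08) and the caveolin gene Cav2 (-0.11 and -0.11) were not called. Cav2 was called lower under 6 of 18 alternatives with each hairpin, among them the mean over its probe sets (-0.24, adjusted p = 0.0049, and -0.32, 0.000524) and leaving out scrambled repeat 3 (-0.15, 0.0219, and -0.15, 0.0202), and with hairpin 2 also without hairpin 1 repeat 1 (0.0499). Slc27a1 was called with hairpin 1 without hairpin 1 repeat 1 (0.32, adjusted p = 0.00656) or scrambled repeat 3 (0.30, 0.0491). Array weights also brought that call (0.30, 0.000531).

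Of 8 tested genes of cholesterol efflux and lipoprotein remodelling, 0 were called higher and 2 lower with hairpin 1, against 1 higher and 2 lower with hairpin 2. Npc2 and Npc1 encode proteins that move cholesterol out of lysosomes. Npc2 fell with both hairpins, by 0.20 and 0.30 (limma adjusted p = 0.000117 and 1.03e-06), and Npc1 by 0.52 with hairpin 2 (adjusted p = 0.000334), beside -0.04 with hairpin 1. Pltp, the phospholipid transfer protein gene, named after its values were seen, rose by 0.52 with hairpin 2 (adjusted p = 0.00404) and was above hairpin 1 by 0.70. Abca7 (0.27 and 0.29) and Abcg1 (0.17 and 0.21), lipid efflux transporter genes, were not called. With hairpin 1, Abca7 was called under 2 of 18 alternatives: array weights (0.40, adjusted p = 0.000155) and without hairpin 1 repeat 1 (0.39, 0.00808). With hairpin 2 it was called under 6 of 18. Among them were array weights (0.0219), only the groups compared (0.0269), and leaving out hairpin 1 repeat 1 (0.29, 0.0205) or hairpin 2 repeat 3 (0.36, 0.0437). Abcg1 was called with hairpin 2 when only the groups compared were fitted (0.0498). Abca1, also an efflux transporter gene and named after its values were seen, was called lower with hairpin 1 (-0.16, adjusted p = 0.0468) on its brightest probe set, while the mean over its probe sets gave 0.12 (0.239). That call was also lost without any 1 array other than hairpin 1 repeat 1 (0.0551 to 0.226).

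**Figure D4:**
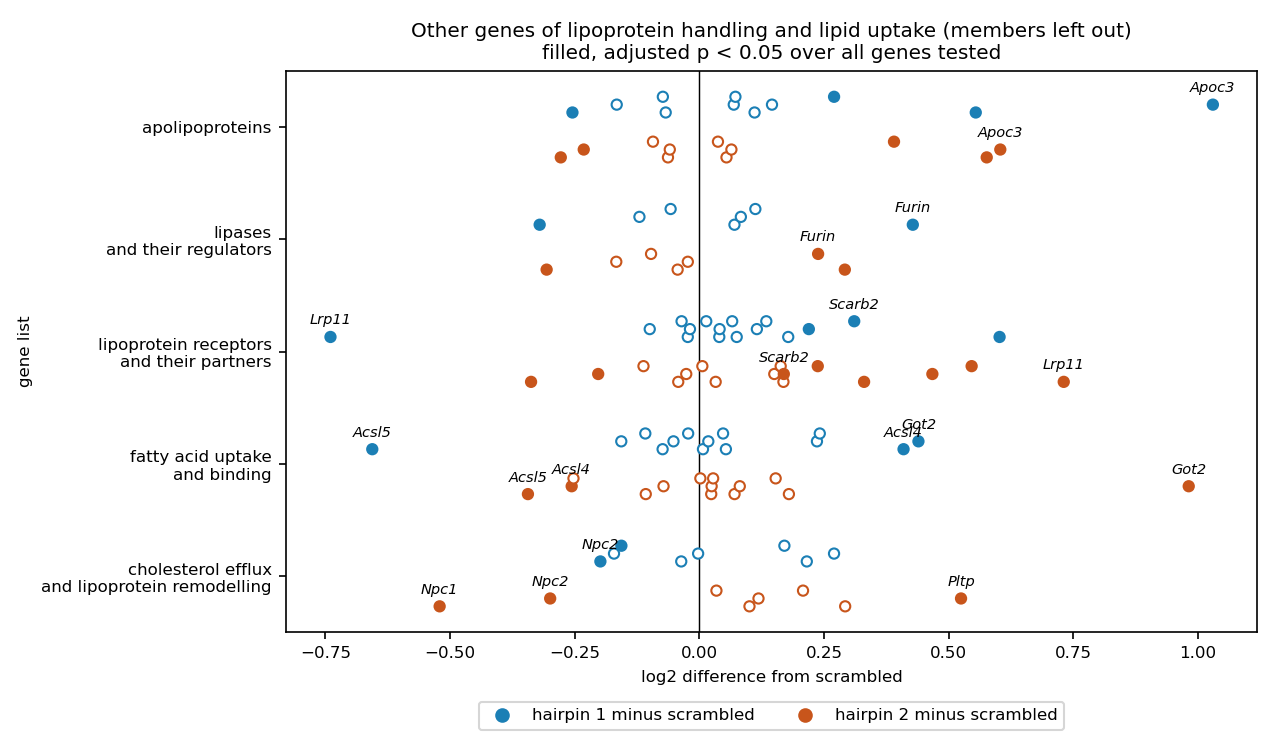
Log2 difference from scrambled (x) of the 56 tested listed genes outside the 10 members, by list (y), with hairpin 1 (blue) and hairpin 2 (orange). Filled points passed an adjusted p of 0.05 over all genes tested. Lrp11 and Acsl4 lie on opposite sides of 0 with the 2 hairpins, and the points farthest from 0 are Apoc3 with hairpin 1 (1.03) and Got2 with hairpin 2 (0.98).

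No adipocyte marker outside the members was called higher with either hairpin. With hairpin 1, 1 of 8 was called lower, Pparg, and with hairpin 2, 3 were, Pparg, Cidec and Pnpla2 (background 9.23% and 13.3% lower). By sign alone, 4 of 8 were above scrambled with hairpin 1 and 1 of 8 with hairpin 2. Pnpla2 differed by 0.19 with hairpin 1 (limma adjusted p = 0.0652) and by -0.20 with hairpin 2 (0.0478). Pparg was lower by 0.25 and 0.56 log2 units (limma adjusted p = 0.000533 and 9.07e-08), and Cidec, a lipid droplet gene, by 0.25 with hairpin 2. The mean level of the list was 11.88 to 12.05 on the scrambled arrays, 11.88 to 12.04 with hairpin 1 and 11.83 to 11.89 with hairpin 2. The part of these markers in the differences of Apod, Angptl4 and Lrp1 was not tested.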

How the data were processed

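The authors deposited 1 log2 value per probe set and array, a product of RMA (no version given) per the submitters' processing notes. The RNA went through NuGEN amplification and biotin labelling, per the labels' protocols. RMA brings the arrays to a like scale, so a shift shared by all genes would be lost or made smaller. The array medians still ran from 6.31 to 6.38. The platform table named 1 gene for 34945 of the 45037 probe sets that are no controls, several for 932 and none for 9160. The brightest probe set stood for a gene, and genes whose mean reached the 30th percentile (5.72 on the log2 scale) were tested. A linear model over the 9 arrays was fitted by limma 3.58.1 (R 4.3.3), with variances moderated by eBayes along a trend on the mean level, with two-sided p-values adjusted by Benjamini-Hochberg over all tested genes or probe sets and a threshold of 0.05. The fit was also run on simulated data with independent noise and far fewer changed genes than were called here. That run therefore does not show how reliable the calls are. The number of arrays, 3 per group, limits the precision.

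The members and lists were chosen with earlier results of these data known. All members were named, and from each list up to 4 further genes with the smallest p for the mean of both hairpins. Other genes, the named cell type markers among them, were chosen after their values were seen. Alternatives covered normalization, filter, probe set rule, variance model, array weights, samples in the fit, a replicate block and leaving out each array.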

Additional observations from a re-analysis of the deposited data

Results flagged for a closer look

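Angptl4 was picked out because it was called with both hairpins in opposite directions. A gene picked this way differs between the hairpins by the choice itself, so these values add no support. The difference was -0.79 log2 units for hairpin 2 minus hairpin 1 (SE 0.058, limma adjusted p = 8.58e-08). The 3 of 3 hairpin 1 arrays lay above and 3 of 3 hairpin 2 arrays below the scrambled range. Arrays did not overlap scrambled for 43.4% of tested genes with hairpin 1 and 49.4% with hairpin 2. With the mean of its probe sets the fall with hairpin 2 was not called (-0.13, adjusted p = 0.208).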

How the results depend on the processing

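The 9 tested members in 3 comparisons had 483 values under 18 alternatives (17 for Apoe, not tested under the filter at the 50th percentile). Of these, 443 kept a call and its direction or stayed without a call, 32 lost a call and 7 gained one. In 1 value a called difference turned sign, that of Fabp4 between the hairpins after averaging probe sets (-0.11). Differences called under neither setting were counted as kept even where their sign turned. Examples after averaging were Cd36 with hairpin 1 (-0.04 to 0.06) and Fabp4 with hairpin 1 (-0.04 to 0.06) and hairpin 2 (0.03 to -0.05). Members called numbered 2, 4 and 5 for hairpin 1, hairpin 2 and hairpin 2 against hairpin 1. With array weights the first count was 5. Between the hairpins it was 3 without a filter, with the mean of all probe sets and with only the groups compared, and 2 without a mean-variance trend, Apod and Angptl4. Leaving out each array gave 2 to 3, 3 to 4 and 3 to 4. For the listed genes outside the members (15, 22 and 17), an analysis chosen after seeing the data, array weights gave 32 with hairpin 1 and 26 between the hairpins, and leaving out each array gave 11 to 23, 15 to 26 and 14 to 21. The count of 23 came without the first repeat of hairpin 1. Over all genes (4199, 4430 and 3702) array weights gave 7460 with hairpin 1 and 5990 between the hairpins, and leaving out each array gave 3080 to 5423, 3567 to 5047 and 2880 to 4664. With the mean of all probe sets, some listed genes turned sign in a difference called with or without that mean. These were Scarb2 (-0.058 with hairpin 1, 0.12 between hairpins), Abca1 (0.12 and -0.23), Lrpap1 (0.17 with hairpin 2) and Sel1l (-0.26 between hairpins). Other signs turned where neither value was called, such as that of Apoh with hairpin 1 (0.11, and -0.04 with the mean). The cause was not tested.

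Arrays with the same repeat number did not deviate together throughout: the correlation of their deviations ran from -0.29 to 0.25, against -0.32 to 0.31 for other pairs, and an array matched its own number best in 7 of 18 comparisons. With the replicate block, members called numbered 2, 4 and 5, listed genes 14, 22 and 17, and all genes 4281, 4470 and 3761. It ended the calls of Apoa4 with hairpin 1 (adjusted p = 0.0524) and Furin with hairpin 2 (0.0618), brought that of Abca7 with hairpin 2 (0.0463), and changed no other call of a member or listed gene. Values near the top (15.0) or bottom (3.90) of the scale limit what could be seen for Lpl, Fabp4, Apoc1, Cd36 and Vldlr. Npc2, at 14.38 on the scrambled arrays, also lay near the top.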
